A study of Rattus norvegicus with 9 samples.

Results

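S100a8 (ENSRNOG00000011557) and S100a9 (ENSRNOG00000011483), the genes of the calprotectin subunits, were followed across hypothalamic tissue of Control rats and of rats with a lesion. They were chosen by ID, and make up 2 of the 34784 rows of the count table. The table gives IDs without symbols and the reference gene table used here holds 0 Ensembl IDs, so the pairing of these IDs with the symbols was taken from the choice itself and was not checked. The tissue came from rats of the S-D strain and held the supraoptic and paraventricular nuclei, where the large vasopressin and oxytocin neurons lie. It was profiled by bulk RNA sequencing in 3 libraries labelled Control and in 3 each from 1 d and 7 d after the operation that the labels call PEL. The labels leave PEL unexplained; in the published work on this model the abbreviation stands for an electric lesion of the pituitary stalk, the tract that carries the axons of these neurons, and the series concerns central diabetes insipidus. They name no sham operation for Control, no age and no sex, and they do not tie each library to its own animal, so the spread behind every p-value is that of libraries and may be technical.

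Calprotectin is a pair of small calcium-binding proteins, S100A8 and S100A9, that are stored in large amounts in the cytosol of neutrophils and are also made by monocytes. Released at sites of injury, it withholds zinc and manganese from microbes and acts on the receptors TLR4 and RAGE. In healthy brain tissue both transcripts are scarce, and their rise is often read as a sign that blood myeloid cells are present. In bulk tissue, fewer cells of a type and less RNA per cell cannot be told apart, and blood held in vessels cannot be told apart from cells that have entered the tissue. Neutrophil, monocyte, microglial and red-cell markers, and the neuropeptides that define these nuclei, were not measured beside calprotectin here, because their symbols could not be paired with IDs. Their part in what follows was not tested.

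The genes are next to each other in the RefSeq annotation of the rat, with 0 annotated genes between them, in the cluster of S100 genes. The 250 bases upstream of the annotated S100a9 start (RefSeq, build GRCr8, chr2:178490623-178490872, minus strand) are shown because S100a9 is the member with the clearer change. The build of the count table is not given in the sources used here, and this window comes from the reference table alone. Capitals mark the matches found among 4 short motifs.

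S100a9 upstream: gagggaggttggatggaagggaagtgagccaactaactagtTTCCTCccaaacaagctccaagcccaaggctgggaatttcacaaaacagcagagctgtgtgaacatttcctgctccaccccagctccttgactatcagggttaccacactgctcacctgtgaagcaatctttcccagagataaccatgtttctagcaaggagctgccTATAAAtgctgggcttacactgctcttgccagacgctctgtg

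The motifs were searched on both strands of this window and of the same 250 bases of all 33469 promoters in the table. TATAAA, the core of the TATA box, occurred 1 time in the S100a9 window and ended 36 bases before the start; 12.9% of all promoters hold it. GAGGAA, a core of sites for the myeloid factor PU.1, occurred 1 time, on the opposite strand and 203 bases before the start, and 23.3% of promoters hold it. TTGCNNAA, a core of C/EBP sites, had 0 matches (9.22% of promoters hold it), and so did TTCNNNGAA, a core of STAT sites (7.67%). The matches did not overlap, and a match describes the letters only.

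Both transcripts were rare in every group. All 9 libraries together held 37 reads of S100a8 and 80 of S100a9, from total counts of 13338433 to 21012998 per library. Levels in CPM, the read count relative to the size of the library, are given on library sizes scaled by the TMM method. The mean over all libraries was 0.249 CPM for S100a8 and 0.523 CPM for S100a9, against a median of 17.1 CPM over the 17345 genes tested. S100a9 lay above 1.87% of those genes. Among the 24996 rows with any count, it lay above 31.7% and S100a8 above 26.7%. Reads of both genes were present in the same 7 of the 9 libraries.

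S100a9, the subunit whose long tail distinguishes it from its partner, had 13, 13 and 0 reads in Control replicates 1, 2 and 3. It had 18, 19 and 11 reads at 1 d, and 0, 3 and 3 reads at 7 d. The 1 d libraries were all above the 7 d libraries, in reads and in CPM, while Control reached from 0, the bottom of the 7 d range, into the 1 d range in reads. In CPM the Control values were 0.681, 0.696 and 0, the 1 d values 1.01, 1.20 and 0.777, and the 7 d values 0, 0.179 and 0.168. Every 1 d library lay above every Control library once depth was allowed for, although 1 d replicate 3 had fewer reads than 2 of the controls.

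S100a8, the shorter subunit, had 5, 7 and 0 reads in Control, 3, 8 and 9 at 1 d, and 0, 4 and 1 at 7 d. All 3 groups overlapped in reads. Its CPM values were 0.262, 0.375 and 0 in Control, 0.168, 0.505 and 0.636 at 1 d, and 0, 0.238 and 0.0561 at 7 d. One library at 1 d, replicate 1, was below 2 of the controls and below the highest 7 d library, so the groups overlapped in CPM as well.

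**Figure D1:**
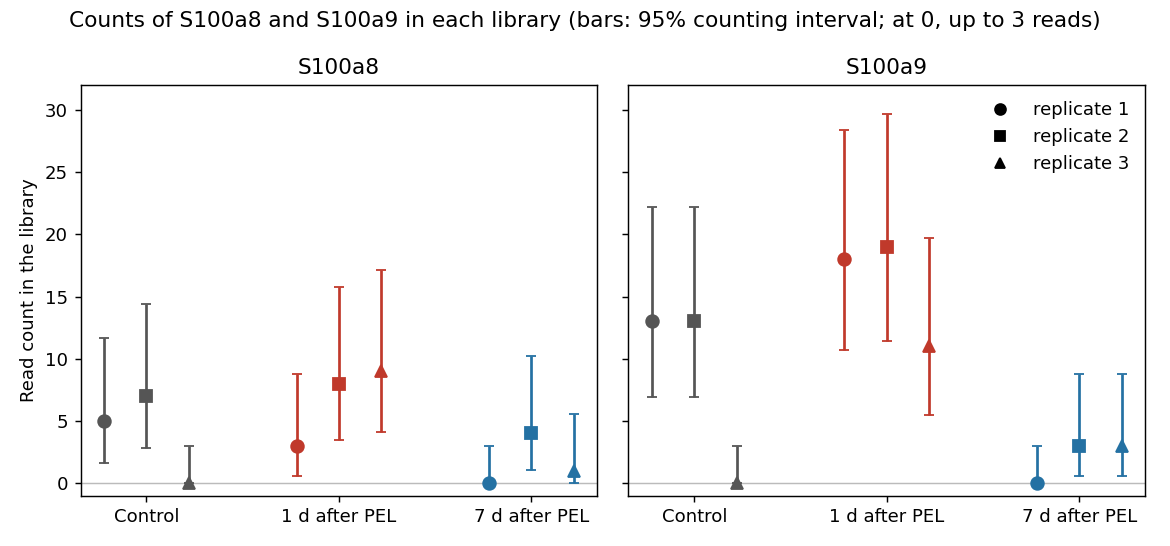
Read counts of S100a8 (left) and S100a9 (right) in each library, by group on the horizontal axis; each point is 1 library, its shape gives the replicate number, and bars are exact 95% Poisson intervals, or the limit of 3 reads for a count of 0, that cover counting error only. S100a9 stood at 11 to 19 reads at 1 d and 0 to 3 at 7 d, and Control replicate 3 and 7 d replicate 1 had 0 reads of both genes.

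Control replicate 3 and 7 d replicate 1 had no read of either gene. They were not shallow: their total counts were 21012998, the highest of all libraries, and 18685921. A count of 0 allows up to 3 reads, which is 0.142 CPM in the first and 0.166 CPM in the second. For Control replicate 3 that limit lies under the S100a9 levels of the other controls, whose 13 reads have an exact 95% Poisson interval of 6.92 to 22.2. For 7 d replicate 1 it is close to the 0.168 and 0.179 CPM of S100a9 in the other 7 d libraries, whose 3 reads each have an interval of 0.619 to 8.77, so a difference within that group was not detectable at this depth. The pair of libraries is singled out here by the zeros of these genes themselves. As a description only, 277 tested genes had no more reads in all than S100a9, and S100a9 was the 1 among them (0.361%) with no read in both libraries. Read counts are not molecules, so intervals and limits cover counting error only.

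The spread between libraries, fitted over all groups, was wide for both genes. Relative to its mean, the spread of S100a9 was narrower at 1 d (0.995 ± 0.211 CPM) than in Control (0.459 ± 0.398 CPM, SD, n = 3 each). The biological coefficient of variation that edgeR fitted was 0.618 for S100a9, higher than that of 97.8% of tested genes, against 0.189 in common over all genes. Those genes are of all levels, and S100a9 lay above 1.87% of them in mean CPM. For S100a8 it was 0.723 in a fit of all rows with a count, where the common value was 0.195. The comparisons below rest on few reads, and in Control and at 7 d 1 library of 3 had none.

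The first comparison asked whether calprotectin transcripts were higher 1 d after the lesion. The S100a9 mean was 0.459 ± 0.398 CPM for Control libraries and 0.995 ± 0.211 CPM for those of 1 d (SD, n = 3 each). The difference was not called: its log2 fold change was 1.13 (SE 0.814, 95% interval -0.68 to 2.95), with an edgeR adjusted p of 0.35. At this time 20.4% of all tested genes were called in either direction. The log2 fold change moved in both directions with the setting. It was 0.52 without Control replicate 3, the library at 0 (edgeR adjusted p = 0.537), 1.55 and 1.57 without Control replicates 1 and 2, and 2.23 with limma-voom (adjusted p = 0.166).

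S100a8 was at 0.212 ± 0.192 CPM in Control and 0.436 ± 0.242 CPM at 1 d (SD, n = 3 each). The default edgeR filter on low counts left it out, and it was tested in a fit of all 24996 rows with a count. Its log2 fold change was 1.01 (SE 0.95, 95% interval -1.02 to 3.04, edgeR adjusted p = 0.572), and 12.8% of genes in that fit were called. Leaving out Control replicate 2 gave 1.69, and leaving out Control replicate 3 gave 0.41. With 0 of the 2 genes called by edgeR, neither had an unadjusted p under 0.05 by edgeR, DESeq2 or limma-voom. The intervals do not show that calprotectin stayed level, since they reach up to a log2 fold change of 3.04.

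The second comparison set 7 d against Control. S100a9 was at 0.116 ± 0.10 CPM at 7 d (SD, n = 3), below its Control mean, and the groups overlapped at 0. The log2 fold change of -1.92 (SE 1.07, 95% interval -4.30 to 0.46) was not called, with an edgeR adjusted p of 0.525. In this comparison 1.02% of tested genes were called. Leaving out Control replicate 3 gave a log2 fold change of -2.51, with an unadjusted p of 0.00541 by edgeR's quasi-likelihood test and an adjusted p of 0.173. The difference was also larger without 7 d replicates 2 and 3, at -2.34 and -2.29. It was smaller in other settings, at -1.50 and -1.48 without Control replicates 1 and 2, -1.35 without 7 d replicate 1 and -1.07 with limma-voom (adjusted p = 0.832).

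S100a8 stood at 0.0981 ± 0.125 CPM at 7 d (SD, n = 3), with 5 reads in that group against 12 in Control. Its log2 fold change was -1.07 (SE 1.12, 95% interval -3.47 to 1.33, edgeR adjusted p = 0.779), in a fit in which 0.784% of genes were called. It was -2.63 without 7 d replicate 2, which held 4 of those 5 reads, -0.39 without Control replicate 2 and -1.65 without Control replicate 3. As at 1 d, edgeR called 0 of the 2 genes. In fits of all 9 libraries neither had an unadjusted p under 0.05 with edgeR, DESeq2 or limma-voom.

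The third comparison, between the times, was the one in which a member passed the test. S100a9 fell from 0.995 ± 0.211 CPM at 1 d to 0.116 ± 0.10 CPM at 7 d (SD, n = 3 each), that is from 48 reads to 6. The fitted fall was 8.28-fold (log2 fold change -3.05, SE 1.00, 95% interval -5.28 to -0.81, edgeR adjusted p = 0.0445), and the groups did not overlap. S100a9 passed the filter on low counts only with the help of its 1 d libraries, and without that filter it was not called (edgeR adjusted p = 0.0549). The call was close to the threshold and in a crowded comparison. Of all tested genes 29.2% were called in either direction and 15.8% were called lower at 7 d, and S100a9 had the 4836th smallest p-value of 17345. Summed over libraries, S100a9 reads per scaled depth were 8.77 times as high at 1 d as at 7 d, with an exact 95% counting interval of 3.76 to 25.2 that leaves out the spread between libraries.

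S100a8 had 20 reads at 1 d and 5 at 7 d. Its log2 fold change of -2.08 (SE 1.07, 95% interval -4.36 to 0.20) missed the threshold, with an edgeR adjusted p of 0.222. In that fit 18.4% of genes were called. Leaving out 7 d replicate 2 gave -3.64, leaving out 7 d replicate 1 gave -1.51, and leaving out 1 d replicate 3 gave -1.71. The unadjusted p was 0.0708 by edgeR's quasi-likelihood test in the fit of all 9 libraries. By that test it was 0.0327 in a fit of 1 d and 7 d alone and 0.0357 without Control replicate 3. It was 0.0459 without 1 d replicate 1, 0.0228 without 7 d replicate 2, and above 0.05 in the other settings. The smallest adjusted p in any other setting was 0.111.

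**Figure D2:**
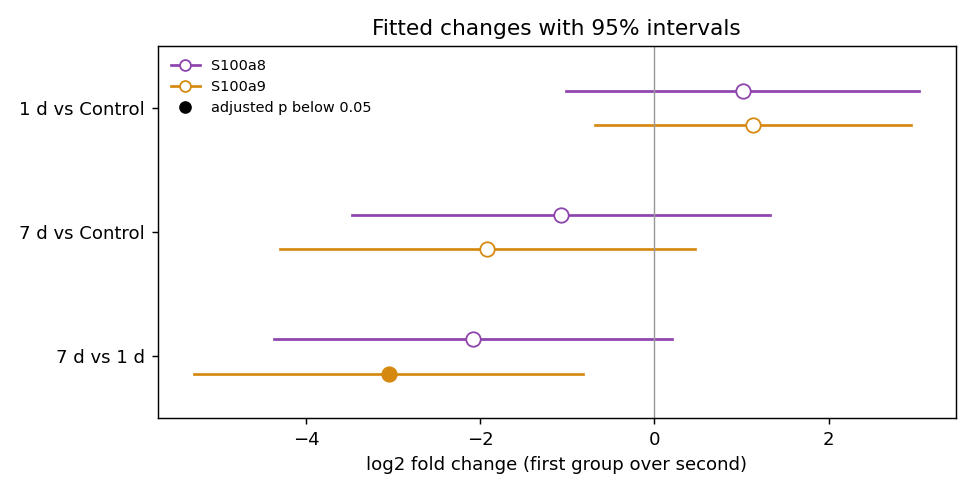
Log2 fold changes of S100a8 and S100a9 in the 3 comparisons, with 95% intervals from edgeR (horizontal axis, first group over second); a filled point has an adjusted p below 0.05. S100a9 at 7 d against 1 d, at -3.05, is the filled point, and the other 5 intervals include 0. Values of S100a9 come from the filtered fit of 17345 genes, and those of S100a8 from the fit of all 24996 rows with a count. In that second fit S100a9 at 7 d against 1 d was not called (edgeR adjusted p = 0.0549).

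The S100a9 fall from 1 d to 7 d kept its direction in all 17 other settings, with log2 fold changes of -3.47 to -2.48, but its call did not. The adjusted p was 0.00496 to 0.126. The call held in 7 settings, counting the fit of 1 d and 7 d alone that is discounted below, and was lost in 10. It held with other scaling factors, with DESeq2 (adjusted p = 0.0274) and in a fit of 1 d and 7 d alone. Without Control replicate 1 or 3 it also held (edgeR adjusted p = 0.0381 and 0.00666). No 7 d library reached the cutoff of the filter on low counts (0.553 CPM over all libraries). Control replicates 1 and 2 reached it, but in the fit of 9 libraries the filter asked for 3. There S100a9 thus passed only with the help of 1 d, the group where it was high. In the fit of 1 d and 7 d alone, 1 d was the only group above the cutoff. The edgeR adjusted p of 0.0445 from the fit of 9 libraries therefore depends on that entry. The 0.00496 from the fit of 1 d and 7 d alone is no added support. The call was lost without Control replicate 2 and without any 1 library of 1 d or 7 d, at edgeR adjusted p of 0.0599 to 0.126. It was also lost with no filter on low counts (edgeR adjusted p = 0.0549), with limma-voom (adjusted p = 0.0868) and in a fit with the replicate number as a term.

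**Figure D3:**
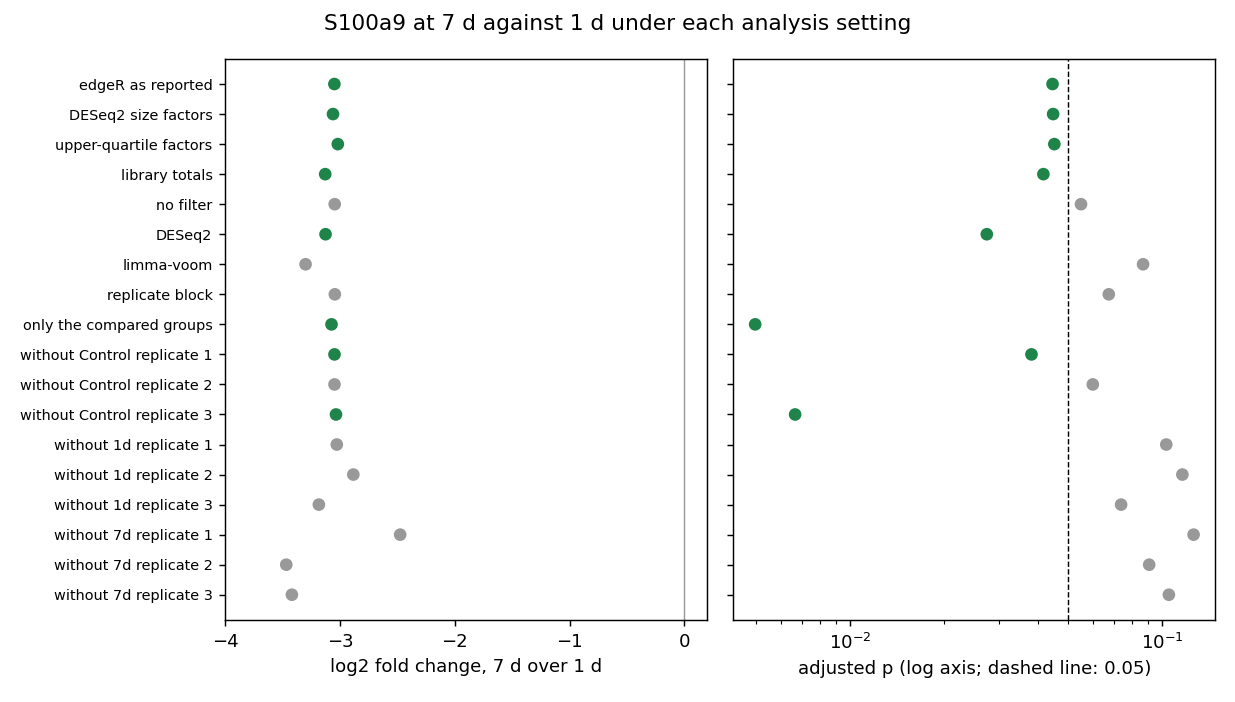
S100a9 at 7 d against 1 d under each analysis setting (rows): the log2 fold change on the left and the adjusted p on a log axis on the right, with the threshold of 0.05 dashed; green points are called. The fold changes lie between -3.47 and -2.48, while the adjusted p values lie on both sides of the threshold.

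The summed level of both subunits was 0.943, 1.07 and 0 CPM in Control; it was 1.18, 1.70 and 1.41 CPM at 1 d, then 0, 0.417 and 0.224 CPM at 7 d. All 3 libraries of 1 d were above all 6 others, the closest values being 1.18 and 1.07 CPM, from 21 and 20 reads. Means were 0.672 ± 0.585 CPM for Control, 1.43 ± 0.265 for 1 d and 0.214 ± 0.209 for 7 d (SD, n = 3 each). An exact two-sided permutation test gave p = 0.4 when 7 d was set against Control. The same exact permutation test gave p = 0.1 for both other pairs of groups, which no 3-against-3 design can go below. Adjusted over the 12 permutation tests made here, these values were 0.533 and 0.3. At its highest, in 1 d replicate 2, calprotectin took 27 reads of a library of 15465804.

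The subunits were high and low in largely the same libraries. Over the 9 libraries the CPM of S100a8 and S100a9 had a Pearson r of 0.736 (exact permutation p = 0.0271) and a Spearman rho of 0.798 (exact permutation p = 0.0137), each with an adjusted p of 0.0271 over these 2 coefficients. Without 1 d replicates 2 and 3, the 2 libraries farthest from the median of S100a8, r was 0.67. The values of a library share its RNA and depth, and the groups differ in level. The permutations moved values freely across the groups, so their p-values partly reflect that difference. With each group's mean taken away r was 0.431, and 3 libraries per group are too few for an r within groups.

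**Figure D4:**
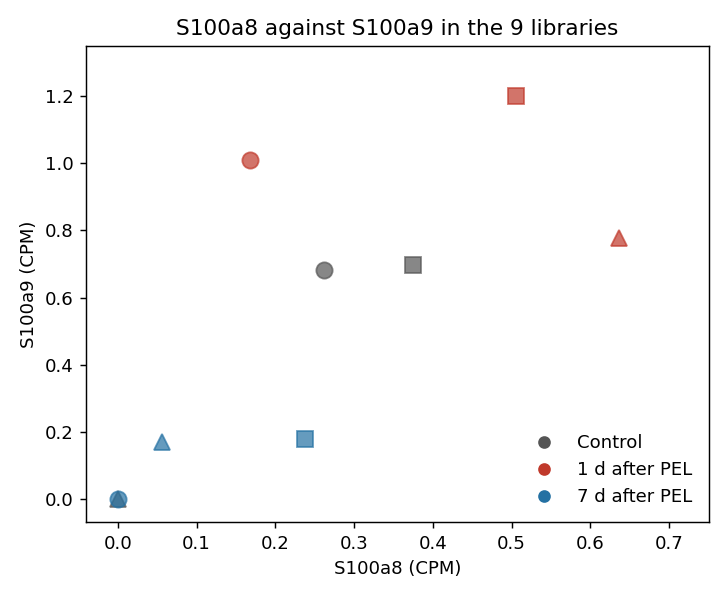
CPM of S100a8 (horizontal) against S100a9 (vertical) in the 9 libraries, coloured by group and shaped by replicate number (circle 1, square 2, triangle 3). Control replicate 3 and 7 d replicate 1 lie on top of each other at 0, and the 3 libraries of 1 d have the highest S100a9 values, from 0.777 to 1.20 CPM.

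The balance of S100a9 to S100a8 reads was also compared, since a count ratio within a library needs no scaling. It is a ratio of reads, not of transcripts, because levels per length were not computed. With 0.5 added to both counts, the log2 ratio was 0.714 ± 0.658 in Control, 1.29 ± 1.07 at 1 d and 0.287 ± 0.830 at 7 d (SD, n = 3 each). Exact two-sided permutation tests gave p of 0.5 (1 d and Control), 0.6 (7 d and Control) and 0.3 (7 d and 1 d), where 3 against 3 cannot go below 0.1, so they do not show that the balance was alike. In both libraries without reads the value is 0 by construction and holds no information on the balance, yet the means above include it. Without these libraries the log2 ratio differed by 0.22 (1 d over Control), -0.64 (7 d over Control) and -0.862 (7 d over 1 d). With them the differences were 0.58, -0.43 and -1.005.

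By a fixed rule, the genes most like the pair were those with the highest Pearson r, over the 9 libraries, between their log2 CPM and the mean log2 CPM of S100a8 and S100a9. Of 17344 genes searched, 6 had an r above 0.9, and such values are picked as the highest of many from 9 points. The highest was ENSRNOG00000017441 (r = 0.951), an abundant transcript whose means were 139 ± 11 CPM for Control, 153 ± 0.911 CPM for 1 d and 129 ± 6.14 CPM for 7 d (SD, n = 3 each). Its levels differed little between groups next to those of the pair. The next was ENSRNOG00000009343 (r = 0.932), a rare transcript whose CPM was 1.99, 1.87 and 0.897 for Control, 2.13, 2.52 and 2.12 for 1 d and 1.28, 1.31 and 1.18 for 7 d. The search fixed the likeness of both genes to the pair, so no test is given for them.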

How the data were processed

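The members and the gene lists were chosen with earlier results of these data known. The deposited table holds raw read counts per gene in 34784 rows, of which 32883 had Ensembl IDs and 1901 other IDs. Per the submitters' processing notes, the tools were featureCounts 1.5.0-p3, HISAT2 2.0.5 and DESeq2 1.16.1; strand setting, annotation and build are not given in these sources, so reads of overlapping or antisense genes may not be told apart. Groups came from library titles.

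Counts were filtered with filterByExpr of edgeR 4.0.16 (R 4.3.3), scaled by TMM and tested with its quasi-likelihood test in 1 fit of 9 libraries with group as the only term. P-values were adjusted by Benjamini-Hochberg over all 17345 genes, with calls below 0.05. S100a8 did not pass the filter, so its values come from the same fit without it, decided after seeing the data, like the summed level. Standard errors are log2 fold change over root F. Alternatives used DESeq2 1.42.0 and limma 3.58.1. The test was checked on simulated counts drawn with 1 spread for all genes. That spread was narrower than the one fitted for S100a9, and the fit without the filter was not simulated. The check therefore does not cover the calls of either member. Per-library values were compared by exact permutation tests in scipy 1.17.1.

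The rule for named genes took the 2 members, listed marker and pathway genes with a matched ID, and the 5 genes most correlated with the members, of which at most 2 are given by ID. No listed gene was matched, so no list was tested. In 9 pairs of replicate libraries, chi-square per degree of freedom was 6.96 to 39.7, so no pair agreed within sampling noise.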

Additional observations from a re-analysis of the deposited data

Results flagged for a closer look

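In the direct test between the times, S100a9 was lower at 7 d than at 1 d by a log2 fold change of -3.05 (edgeR adjusted p = 0.0445). The libraries are not known to be paired, and all 3 of 7 d lay below all 3 of 1 d. That call was lost in 10 of 17 other settings, and 15.8% of all tested genes were called lower in the same comparison. It also depends on the filter on low counts, which S100a9 passed only with the help of its 1 d libraries. Neither time was called against Control itself, at log2 fold changes of 1.13 and -1.92. Both of those comparisons share the Control libraries, and the direct test uses 48 and 6 reads.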

How the results depend on the processing

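S100a9 at 7 d against 1 d lost its call with no filter (log2 fold change -3.05), limma-voom (-3.30) and the replicate block (-3.05, edgeR adjusted p = 0.0674), and in 7 of 9 fits that left out 1 library, whose values ran from -3.47 to -2.48; the cause was not tested. The other 5 fold changes of S100a9 and S100a8 kept their direction and were not called in any setting run. With more than 1 CPM in 3 libraries S100a9 was not tested, nor for 7 d against Control in a fit of those groups; DESeq2 gave no adjusted p for S100a8. The log2 ratio of S100a9 to S100a8 and the summed CPM kept their direction in every setting run, but their permutation tests cannot pass 0.05 with 3 against 3.

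The labels give the replicate numbers no meaning. Same-numbered libraries had correlations of -0.155 to 0.0351 in their deviations from group means, and 3 of 18 matches were best with their own number. With 3 libraries per group, these values cannot show that the libraries were unpaired. With the replicate block 2595, 74 and 4319 genes were called at 1 d, at 7 d and between the times, against 3540, 177 and 5069. Leaving out 1 library gave 1440 to 4595, 7 to 739 and 3071 to 6070; fits of only the compared groups gave 2066 at 1 d and 28 at 7 d, and DESeq2 523 at 7 d. Few reads limit both genes.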
